A study of Mus musculus with 4 samples.

Results

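The genes described here form the class I antigen presentation pathway of the major histocompatibility complex (MHC). They were read in brain septal tissue of restraint-stressed mice. The members were chosen by symbol and role: the heavy chains H2-K1, H2-D1 and H2-T23, the light chain B2m, the peptide transport and loading genes Tap1, Tap2 and Tapbp, and the immunoproteasome subunits Psmb8, Psmb9 and Psmb10. Of these 10 genes, 7 had a value among the 15409 gene rows and all 7 were among the 13912 genes tested. Every listed symbol was free of hyphens, which the H2 names carry, so the 3 heavy chains have no value and were not analysed here.

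The study compared mice of genotype TCRb-/-, which cannot make T cells with the alpha-beta receptor, with wild-type (WT) mice. Each genotype had 2 libraries, and each library was the pooled septal tissue of 4 to 5 mice, so that a replicate is a pool. Every animal of either genotype had been restrained (30 min a day, 3 days) and was sampled 1.5 h later, so all values are from stressed mice. The labels place 1 library of each genotype in experiment 1 and 1 in experiment 2, and the sources used here do not give strain, age or sex. Pairs of values below are in the order experiment 1, experiment 2, which are replicates 1 and 2 of a genotype. No label names the animals behind a pool, so p-values measure the spread between pools. Without a block, the spread within a genotype lies between its experiment 1 and experiment 2 pools, so it holds the difference between experiments.

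Class I molecules display peptides cut from a cell's own proteins. The proteasome makes the peptides, the TAP transporter carries them into the endoplasmic reticulum, tapasin (Tapbp) holds an empty heavy chain with beta-2-microglobulin (B2m) beside the transporter, and the loaded complex moves to the surface, where CD8 T cells and some natural killer receptors read it. Interferons raise the genes of this pathway, and the immunoproteasome subunits then replace their constitutive counterparts. In brain, microglia, endothelium, the choroid plexus and some neurons are known to express class I genes.

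Of the members, 8 lie on chromosome 17 in the MHC region, B2m on chromosome 2 and Psmb10 on chromosome 8 (GENCODE M21, GRCm38). Tapbp spans chr17:33915899-33929292, Psmb9 chr17:34181987-34187764, Tap1 chr17:34187553-34197225, Psmb8 chr17:34197721-34201454 and Tap2 chr17:34203527-34216321. The unmeasured heavy chains are H2-K1 at chr17:33996017-34000347, H2-D1 at chr17:35262730-35267499 and H2-T23 at chr17:36029773-36032855. Outside the cluster, B2m spans chr2:122147686-122153083 and Psmb10 chr8:105935735-105938444. Psmb9 and Tap1 are neighbours read in opposite directions and share 212 exonic bases in this annotation. On the antisense side, Psmb8 shares 186 exonic bases with Gm20496, Tap2 518 with Gm15821 and 25 with Gm20496, and Tapbp 682 with Gm19412. Without stated strand, reads from such shared stretches cannot be assigned to one gene.

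The stretches before the start sites of B2m and H2-K1 are printed for 2 reasons. They show an arrangement of matches that B2m shares with H2-K1 and H2-D1, though not with H2-T23. B2m is also the member with the most reads per exon length below. Both are RefSeq sequences on GRCm38.p6, from 250 bases before the annotated start (249 printed for B2m, chr2:122147437-122147685, plus strand, and 250 for H2-K1, chr17:34000348-34000597, minus strand). Capitals mark matches to the motifs searched.
B2m: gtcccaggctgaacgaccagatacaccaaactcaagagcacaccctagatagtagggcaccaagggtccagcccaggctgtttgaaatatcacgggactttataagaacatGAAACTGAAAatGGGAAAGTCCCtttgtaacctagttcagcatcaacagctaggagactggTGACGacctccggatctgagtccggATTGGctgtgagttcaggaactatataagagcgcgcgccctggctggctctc
H2-K1: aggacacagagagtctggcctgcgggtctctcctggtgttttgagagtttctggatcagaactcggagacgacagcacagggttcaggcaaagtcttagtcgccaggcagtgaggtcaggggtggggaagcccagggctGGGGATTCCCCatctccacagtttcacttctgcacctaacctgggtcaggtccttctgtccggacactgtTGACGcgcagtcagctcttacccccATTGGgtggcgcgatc

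Both stretches hold an NF-kB-type match (GGGA and, after any 4 bases, CC; here overlapping matches on both strands), followed by TGACG, the core of a cyclic AMP response element, and by CCAAT read on the other strand. In B2m these begin 127, 78 and 53 bases before the start, and in H2-K1 111, 41 and 16 bases before it. B2m alone of the pair also has an exact match to GAAA followed, after any 2 bases, by GAAA, 139 bases before the start. These letters are the core of the interferon-stimulated response element. Of the 10 members, 9 had a promoter sequence (Tap2 did not). Among these, the exact interferon match was found in 2 (B2m and H2-T23) and the NF-kB-type match in 3 (B2m, H2-K1 and H2-D1). TGACG was found in 5 and CCAAT in 7. The STAT-type match TTCNNNGAA was found in Psmb8 alone, and Psmb10 held none of the 5 motifs. All 250 bases searched for H2-D1, Tap1, Tapbp, Psmb8 and Psmb9 are annotated as exonic in GENCODE M21. For Psmb8, Psmb9, Tapbp and H2-D1 they lie inside the gene spans given above, so RefSeq and GENCODE place these starts differently. For H2-T23, 154 of the 250 bases are exonic, and its interferon match lies inside the gene span given above. For Psmb10, 52 of the 250 bases are exonic. A match or its absence in such bases may not describe the promoter. The same exact letters were searched on both strands in the 250 bases before the start of 27025 genes. The interferon match was in 3.06%, the NF-kB-type match in 17.3%, TGACG in 17.6%, CCAAT in 34.2% and the STAT-type match in 7.11%. For Psmb9 and Tap1, whose RefSeq starts face away from each other with 225 bases between them, the same TGACG and CCAAT letters lie before both starts. A match is a run of letters and not a shown binding site. A missing match does not show that an element is absent, since variants of these letters were not searched.

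The libraries held 19988137 to 26210790 reads, so that 1 read was worth 0.0382 to 0.050 CPM (reads scaled to a common library total). As a check of the labels, the receptor segment Trbc2 had 169 and 86 reads in WT and 0 and 0 in TCRb-/-, where 3 reads would be 0.122 and 0.150 CPM. Septal markers were present (17 of 17 listed, 614 to 700.2 CPM summed), but striatal markers differed by experiment, at 6281 and 1552 CPM summed in TCRb-/- and 5597 and 3397 CPM in WT, lowest in TCRb-/- replicate 2. Of leukocyte genes, 7 of 16 T cell markers and 3 of 14 markers of other leukocytes had a row, and Ptprc (CD45) lay between 0.687 and 1.10 CPM.

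Levels were compared between genes as CPM per kilobase of annotated exon, over all 4 libraries. B2m was highest at 75.5 ± 17.4 (SD, n = 4), followed by Psmb10 at 48.5 ± 6.65 and Tapbp at 15.8 ± 1.28. These 3 genes did not overlap in any library. The other 4 were far lower: Psmb8 at 2.03 ± 0.372, Tap2 at 1.94 ± 0.436, Psmb9 at 1.00 ± 0.350 and Tap1 at 0.834 ± 0.225. Psmb8 and Tap2 did not differ beyond their spread, and neither did Psmb9 and Tap1. By this measure the septal lysate held more RNA for B2m, tapasin and Psmb10 than for the transporter genes or the other immunoproteasome subunits.

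The first comparison asked whether class I presentation differed between TCRb-/- and WT septum. None of the 7 measured genes passed the threshold in limma, a linear model with moderated variance fitted to log2(CPM + 1) over all genes (Benjamini-Hochberg adjusted p under 0.05). Over all genes tested 0.0% were called, and 0.0144% with the experiment as a block (0.00719% higher, 0.00719% lower in TCRb-/-), again without a member. The unadjusted p was under 0.05 for 43 genes (0.309%), no member among them, and for 5.64% of genes with the block, B2m among them. The values leaned upward in TCRb-/-: 5 of 7 members were higher in TCRb-/- in both experiments and 0 lower in both, where 27.0% of all genes tested were higher and 24.5% lower in both. The median difference of the 7 was 0.21 on the log2(CPM + 1) scale, at 0.12 in experiment 1 and 0.14 in experiment 2, against 0.00069 over all genes tested. It came to 0.013 without WT replicate 1, 0.046 without TCRb-/- replicate 2 and 0.055 when a mean of 10 CPM was required, which left 3 members.

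**Figure D1:**
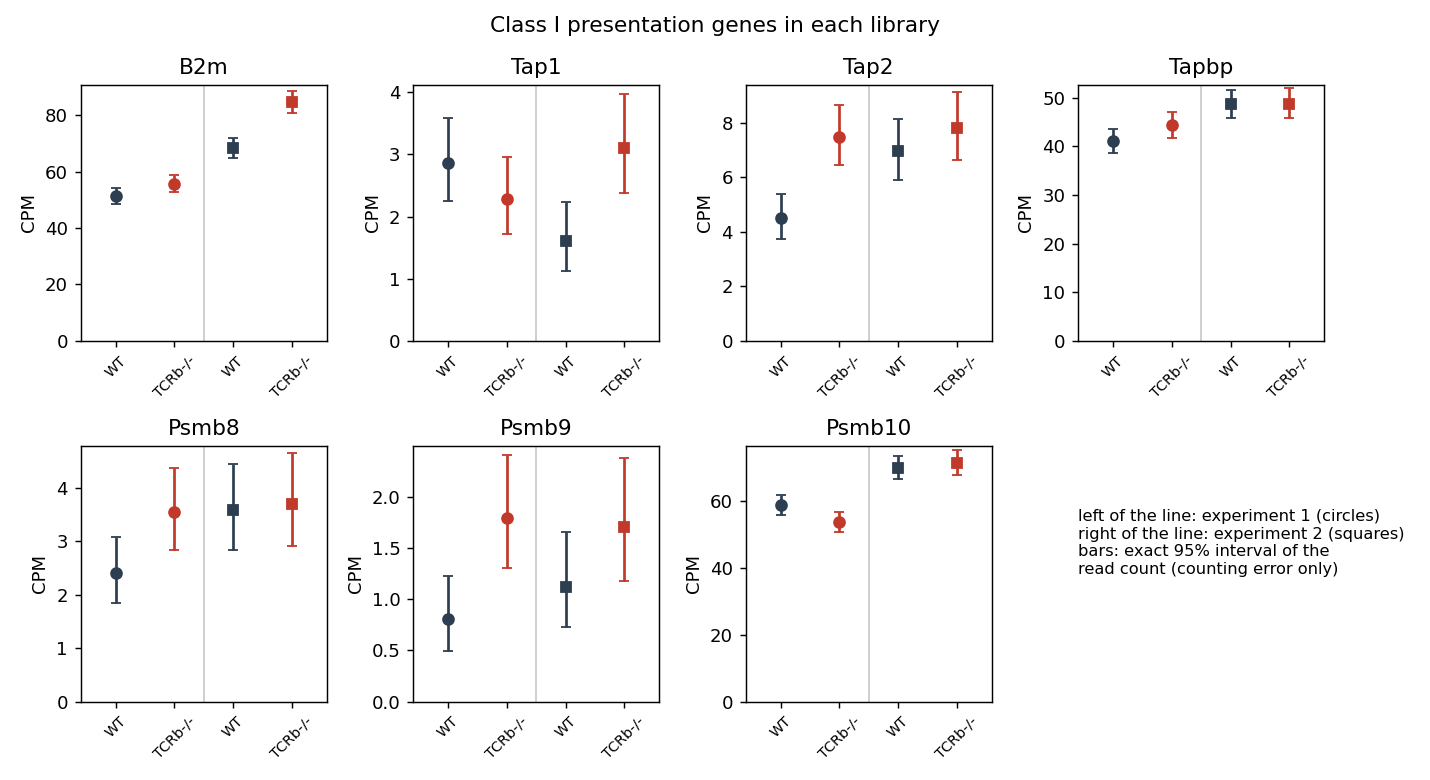
Level of each measured class I presentation gene in each library, in CPM (axes from 0), WT dark and TCRb-/- red, experiment 1 left of the line and experiment 2 right of it, with the exact 95% interval of the read count. In Psmb9 and Tap2 both red points lie above both dark ones. In B2m, Tapbp, Psmb8 and Psmb10 the points of experiment 2 lie above those of experiment 1, in Psmb8 by little.

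B2m, the light chain that every classical class I molecule needs, stood at 55.7 and 84.6 CPM in TCRb-/- septum and at 51.2 and 68.2 CPM in WT septum. The TCRb-/- library was the higher one in each experiment, but the genotypes overlapped, since WT replicate 2 lay above TCRb-/- replicate 1. The ratio of TCRb-/- to WT was 1.09 in experiment 1 (exact 95% interval 1.01 to 1.17, counting error only) and 1.24 in experiment 2 (1.16 to 1.33). The fitted log2 difference was 0.21 (SE 0.25, 95% interval -0.42 to 0.84, adjusted p 1.00 in limma). It turned to -0.084 without TCRb-/- replicate 2, the library lowest in striatal markers, and was 0.0095 without WT replicate 1. With the experiment as a block its interval was 0.02 to 0.40 (unadjusted p 0.0345, adjusted p 0.848 in limma).

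Tap1 and Tap2 form the peptide transporter together. Tap2 had 184 and 156 reads in TCRb-/-, and 118 and 156 in WT. In CPM that was 7.48 and 7.80 against 4.50 and 6.98, so both TCRb-/- libraries lay above both WT libraries, as in 9.76% of all genes tested (8.04% had both below). Among the members Tap2 and Psmb9 did so, and none had both below. The fitted log2 difference of Tap2 was 0.38 (95% interval -0.22 to 0.98, adjusted p 1.00 in limma). With the experiment as a block its interval was -0.01 to 0.78 (unadjusted p 0.0545, adjusted p 0.848 in limma). WT replicate 1 was the low library, and the ratio of TCRb-/- to WT was 1.66 (1.31 to 2.11) in experiment 1 and 1.12 (0.890 to 1.41) in experiment 2.

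Its partner Tap1 did not share that pattern. Tap1 had 56 and 62 reads in TCRb-/-, and 75 and 36 in WT, or 2.28 and 3.10 CPM against 2.86 and 1.61. The order of the genotypes turned between experiments, with a ratio of 0.796 (0.553 to 1.14) in experiment 1 and 1.93 (1.26 to 2.99) in experiment 2. The fitted log2 difference of 0.21 (95% interval -0.49 to 0.90, adjusted p 1.00 in limma) is the mean of those opposite values.

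Tapbp encodes tapasin, which bridges the transporter and the empty heavy chain. It stood at 44.3 and 48.8 CPM in TCRb-/- septum and at 41.1 and 48.6 CPM in WT septum. The genotypes overlapped, and in experiment 2 the libraries differed by less than counting error (ratio 1.00, 0.919 to 1.10). The fitted log2 difference was 0.055 (95% interval -0.33 to 0.44), the narrowest interval of the 7 genes in the fit without a block. With the experiment as a block the Tapbp interval was -0.14 to 0.25, and that of Psmb10 was narrower (-0.24 to 0.14).

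Psmb9 (LMP2) and Psmb8 (LMP7) are immunoproteasome subunits encoded beside the transporter genes. Psmb9 had 44 and 34 reads in TCRb-/-, against 21 and 25 in WT, or 1.79 and 1.70 CPM against 0.801 and 1.12. Both TCRb-/- libraries were higher, by a ratio of 2.23 (1.3 to 3.96) in experiment 1 and 1.52 (0.881 to 2.66) in experiment 2. Its log2 difference was 0.49 and missed the threshold (95% interval -0.05 to 1.03, unadjusted p 0.0677 and adjusted p 1.00 in limma). With so few reads the value rests on the pseudocount, at 0.18 with 5 and 0.82 with 0.1. With the experiment as a block the Psmb9 interval was -0.003 to 0.98 (unadjusted p 0.0511, adjusted p 0.848 in limma). Psmb8 had 3.54 and 3.70 CPM in TCRb-/- and 2.40 and 3.58 in WT, with a log2 difference of 0.23 (95% interval -0.35 to 0.80). Here, as in Tap2, WT replicate 1 was low and the other 3 libraries were close together.

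Psmb10 (MECL-1), the immunoproteasome subunit outside the MHC region, stood at 53.6 and 71.6 CPM in TCRb-/- septum and at 58.8 and 70.1 CPM in WT septum. The ratio of TCRb-/- to WT was 0.912 (0.847 to 0.983) in experiment 1 and 1.02 (0.950 to 1.10) in experiment 2. Its log2 difference of -0.05 (95% interval -0.53 to 0.43) was the lowest of the 7.

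**Figure D2:**
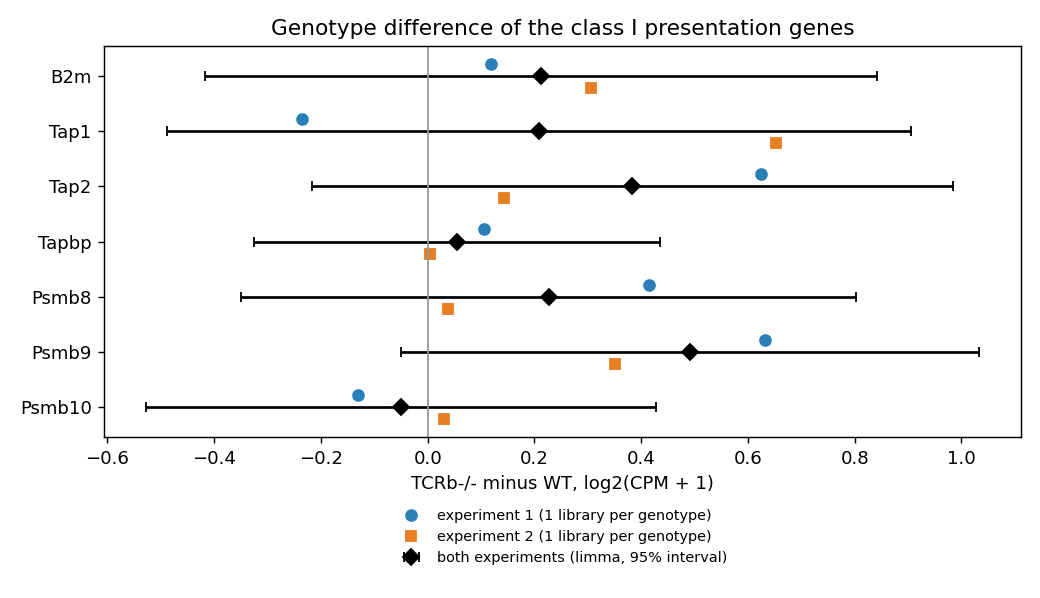
Difference between TCRb-/- and WT on the log2(CPM + 1) scale for each measured gene: circles for experiment 1, squares for experiment 2, diamonds with 95% intervals for the limma fit over both. Every interval of this fit, which has no term for the experiment, crosses 0, the diamonds of Psmb9 and Tap2 lie farthest to the right at this pseudocount, and the circle and the square of Tap1 fall on opposite sides of 0.

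The immunoproteasome subunits were next set beside the constitutive subunits they replace, per exon length and within each library. Psmb8 stood at 1.51% and 1.26% of Psmb5 in TCRb-/- and at 1.03% and 1.33% in WT. Psmb9 stood at 0.262% and 0.206% of Psmb6 in TCRb-/- and at 0.120% and 0.135% in WT, so that the genotypes did not overlap. Psmb10 stood at 57.4% and 64.8% of Psmb7 in TCRb-/- and at 59.2% and 63.4% in WT. RNA for the subunits inside the MHC region was thus a small fraction of that for their counterparts, unlike RNA for Psmb10. An exact permutation test of 2 against 2 libraries cannot go below 0.333, and no test of the ratios was made. The constitutive subunits themselves differed little by genotype, with log2 differences of 0.07 for Psmb5, 0.02 for Psmb6 and -0.04 for Psmb7. Between experiments, 2 of these 3 were called higher in experiment 2 and 0 lower (median log2 difference 0.27). Of all genes tested, 8.95% were called higher and 14.7% lower.

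**Figure D3:**
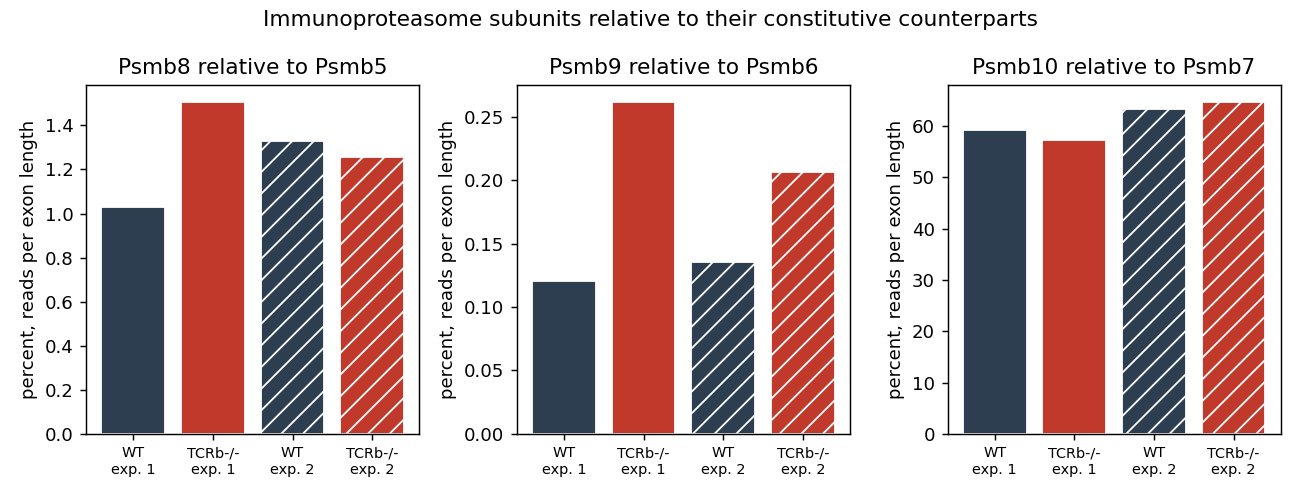
Reads per exon length of each immunoproteasome subunit as a percentage of its constitutive counterpart in each library (bars from 0; WT dark, TCRb-/- red, experiment 2 hatched). The scales differ: Psmb9 reaches at most 0.262% of Psmb6, while Psmb10 reaches 57.4% to 64.8% of Psmb7.

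The second comparison was between the experiments, over both genotypes. B2m was higher in experiment 2 (76.4 ± 11.6 against 53.5 ± 3.17 CPM, SD, n = 2 each), with a log2 difference of 0.50 (95% interval 0.25 to 0.75, adjusted p 0.0173 in limma). Psmb10 was higher as well (70.8 ± 1.07 against 56.2 ± 3.64 CPM), with a log2 difference of 0.33 (0.15 to 0.51, adjusted p 0.0219 in limma). Of all genes tested 23.7% were called between experiments (8.95% higher and 14.7% lower in experiment 2), and the 2 of 7 members called as higher stand beside that 8.95%. In 4 of 7 members (B2m, Tapbp, Psmb8 and Psmb10) both libraries of experiment 2 lay above both of experiment 1, as did those of 30.1% of all genes tested, with 37.2% the other way. Tapbp (log2 difference 0.19, adjusted p 0.127), Tap2 (0.29, 0.343), Psmb8 (0.24, 0.390), Psmb9 (0.09, 0.818) and Tap1 (-0.12, 0.749) did not pass in limma. The B2m call is lost without WT replicate 1 (adjusted p 0.0741) and the Psmb10 call without TCRb-/- replicate 1 (0.0895) or replicate 2 (0.0696), and both are lost without a variance trend (0.0727 and 0.0766).

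Markers of neighbouring tissue moved with that comparison. Choroid plexus markers were called higher in experiment 2 for 16 of 18 genes (0 lower, median log2 difference 1.13) and striatal markers lower for 16 of 16 (median -1.39), and their part in the B2m and Psmb10 values was not tested.

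Exon length moved with it too. With the genes split by length into 3 groups of like size, the shortest group (median 1722 bases) had a median difference between experiments of 0.13 and the longest (6021 bases) one of -0.21. B2m (860 bases) and Psmb10 (1311 bases) are in the shortest group, with differences above its median, and the part of length in their values was not tested.

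The other genes of the pathway were taken from lists by role. The class I-like molecules in the list had 4 genes with a row of 31, and 4 of 4 were higher in TCRb-/- in both experiments, beside 27.0% of all genes tested (24.5% lower), with 0 past the threshold in limma and a median log2 difference of 0.21. Fcgrt, the neonatal Fc receptor that pairs with B2m, had 12.9 and 13.2 CPM in TCRb-/- against 10.9 and 11.2 in WT. Hfe, which binds the transferrin receptor and regulates iron, had 6.79 and 11.1 against 6.10 and 8.01 CPM. Mr1, which presents vitamin metabolites to a class of unconventional T cells, had 7.48 and 8.56 against 5.80 and 8.10 CPM. The genotypes overlapped in Hfe and Mr1. In 2 of the 4 genes, Fcgrt being 1 of them, both TCRb-/- libraries lay above both WT libraries, and in 0 both lay below. Of all genes tested, 9.76% had both above and 8.04% both below.

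Chaperones and other genes of peptide loading showed no call by genotype (0 of 13, median log2 difference 0.08). In both experiments 9 of the 13 were higher in TCRb-/- and 1 was lower, beside 27.0% and 24.5% of all genes tested. The lectin chaperone Canx had 358 and 373 CPM in TCRb-/- against 306 and 370 CPM in WT. Calr, its soluble relative, had 261 and 242 against 233 and 242 CPM, and the disulfide isomerase Pdia3 of the loading complex 212 and 247 against 207 and 251 CPM. Proteasome activators and assembly factors were flat by genotype (0 of 9 called, median 0.02) and higher in experiment 2 (5 of 9 called, 0 lower, beside 8.95% and 14.7% of all genes tested; median 0.26). Psme1, a subunit of the interferon-inducible proteasome cap, had 75.6 and 95.3 CPM in TCRb-/- against 78.1 and 94.1 in WT, and the assembly factor Pomp 216 and 255 against 215 and 259 CPM. Psme3, which forms a nuclear cap, had 251 and 247 against 238 and 255 CPM. Cytosolic peptidases, which trim or destroy peptides, had 0 of 8 called by genotype and a median of -0.04. Among them Blmh had 99.9 and 108 CPM in TCRb-/- and 105 and 112 in WT, Npepps 63.2 and 69.7 and 73.8 and 67.9, and Lap3 68.4 and 66.6 and 69.6 and 68.2.

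Regulators of class I genes were listed at 25 of 26, the exception being Nlrc5, and 0 of 25 were called by genotype (median log2 difference 0.02). In both experiments 7 were higher and 5 lower in TCRb-/-, near the 27.0% and 24.5% of all genes tested. Jak1, a kinase of interferon receptors, had 98.6 and 126 CPM in TCRb-/- against 116 and 117 in WT. Rfxap, a subunit of the RFX complex that binds class I promoters, had 95.3 and 118 against 95.5 and 105 CPM, and Nfyb, a subunit of the factor that binds CCAAT, 74.5 and 68.6 against 80.2 and 73.3 CPM. Interferon-induced genes had 0 of 23 called, 13 higher and 0 lower in TCRb-/- each time (27.0% and 24.5% of all genes tested), and a median of 0.17. The 3 most abundant were Ifi27 (53.4 and 82.4 CPM in TCRb-/- against 44.8 and 61.9 in WT), Lgals3bp (25.1 and 43.9 against 19.6 and 31.5) and Ifitm3 (13.7 and 15.8 against 9.54 and 11.8). Of the receptors for class I molecules, Tyrobp, an adaptor of microglial and natural killer receptors, had 10.6 and 9.86 CPM in TCRb-/- and 10.3 and 11.3 in WT, and Cd247 had 0.407 and 1.50 and 0.191 and 0.760 CPM.

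**Figure D4:**
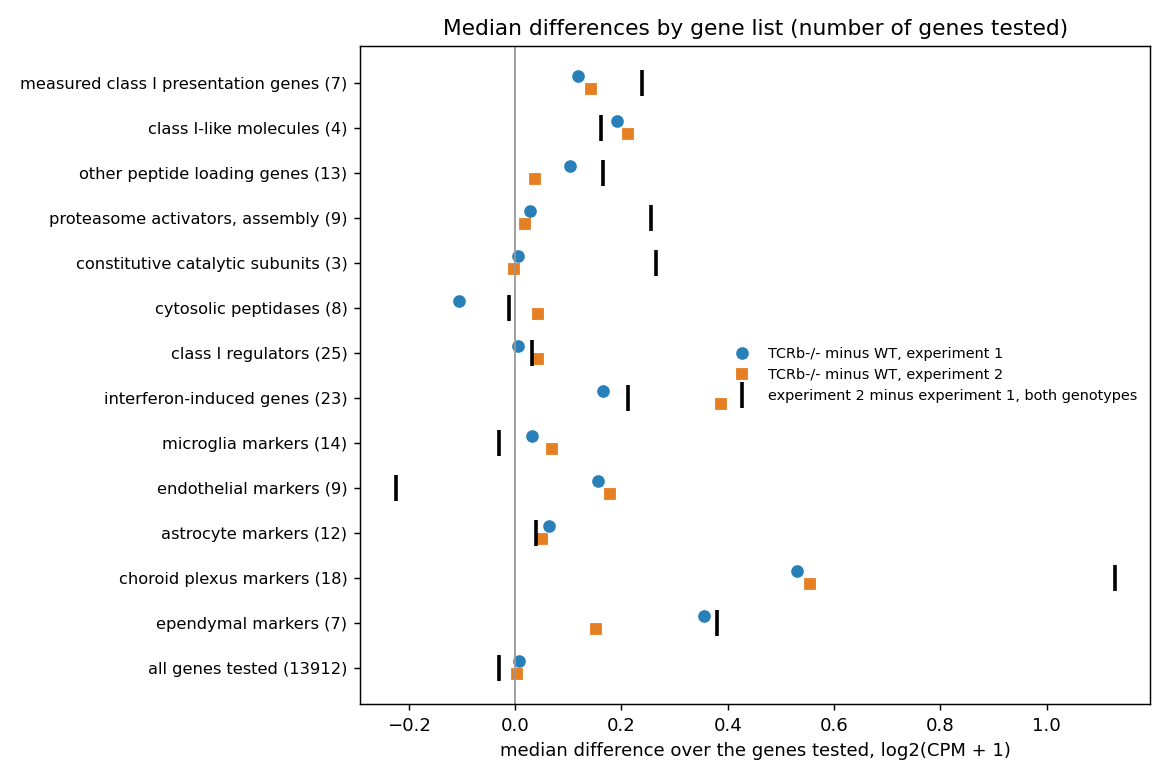
Median difference on the log2(CPM + 1) scale over the genes tested in each list (number in brackets): TCRb-/- minus WT in experiment 1 (circles) and experiment 2 (squares), and experiment 2 minus experiment 1 (bars). Choroid plexus markers lie farthest right in all 3 differences, and all genes tested lie near 0.

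Markers of cell types were read beside these values, since in bulk tissue more cells of a type and more RNA per cell cannot be told apart. Choroid plexus markers were higher in TCRb-/- in both experiments for 18 of 18 genes (27.0% of all genes tested), with 1 of 18 called (Ttr) when the experiment was a block. Their summed level was 2314 and 7179 CPM in TCRb-/- septum against 1450 and 4399 CPM in WT septum, led by the thyroid hormone carrier Ttr (1204 and 4478 against 638 and 2591) and by Enpp2 (769 and 2028 against 554 and 1336). The libraries rank in the same order by that sum as by B2m (WT 1, TCRb-/- 1, WT 2, TCRb-/- 2), and its part in the B2m values was not tested. Ependymal markers summed to 192 and 226 CPM in TCRb-/- and 150.2 and 208 CPM in WT, and 6 of 7 tested genes were higher in TCRb-/- each time. Endothelial markers summed to 68.7 and 67.0 CPM in TCRb-/- and 64.7 and 56.8 CPM in WT, with 6 of 9 higher in both. Microglia markers differed less, at 239 and 242 CPM in TCRb-/- and 237 and 231 CPM in WT, with 6 of 14 higher and 2 lower in both. Astrocyte markers summed to 2956 and 2917 CPM in TCRb-/- against 2699 and 2733 CPM in WT, with 7 of 12 higher and 1 lower in both. Neuron markers went the other way, with 7 of 14 lower and 1 higher in TCRb-/- in both experiments (24.5% and 27.0% of all genes tested) and 0 called, and summed to 8915 and 9244 CPM in TCRb-/- and 9840 and 9317 CPM in WT. Oligodendrocyte markers summed to 11180 and 9405 CPM in TCRb-/- and 9835 and 9995 CPM in WT, with 1 of 10 higher and 1 lower in both. Pericyte markers (39.7 and 27.1 against 38.6 and 29.1 CPM) had 0 of 5 higher or lower in both, and meningeal fibroblast markers (698 and 780.2 against 691 and 681 CPM) 2 of 10 higher. Of the border macrophage markers 4 of 7 had a row (5.57 and 3.70 against 7.33 and 5.14 CPM summed). Of the blood markers 1 of 6 had a row (Alas2, 3.74 and 2.20 against 2.98 and 2.50 CPM). The hemoglobin genes of that list carry hyphens in their symbols, so they have no value here. What part these cell types have in the class I values was not tested.

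The 5 genes outside all lists whose values over the 4 libraries lay closest to the median pattern of the members, by Euclidean distance of centred log2(CPM + 1), were Rab4b, Gm27202, Ppp1r32, Gm16287 and Sesn2. Rab4b, at a distance of 0.0277, had 4.92 and 6.0 CPM in TCRb-/- and 3.93 and 5.41 CPM in WT. In that pattern WT replicate 1 is the lowest library and TCRb-/- replicate 2 the highest, at -0.31 and 0.22 from the mean.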

How the data were processed

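RNA of pooled septal tissue was sequenced from 4 libraries, prepared with an ultra-low-input kit from a detergent-cleared lysate, per the labels' protocols. The submitters' processing notes name HISAT2 2.1.0, SAMtools 1.3, HTSeq 0.9.1, R 4.0.5, limma 3.46.0 and mm10; their roles, the counting annotation, its strand setting and the rule for keeping rows were not stated in these sources. The deposited values were log2 CPM; their steps showed 0.5 added to the reads and 1 to the library total, and solving for the total gave whole reads for 100% of values within 0.001 reads. ERCC spike-in rows (17) were left out.

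Reads were rescaled to CPM of the library total, moved to log2(CPM + 1), which understates changes of low genes, and filtered at a mean of 1 CPM. The tests between genotypes and between experiments used limma 3.58.1 under R 4.3.3 (empirical Bayes with a mean-variance trend, two-sided, Benjamini-Hochberg over all genes tested, threshold 0.05). The fit was also run on simulated counts with known genotype changes and no difference between experiments. That run does not show how the fit behaves where experiments differ. Exact 95% intervals (Clopper-Pearson) cover counting error only, since copies made by amplification were not told apart by molecular identifiers; a floor is 3 reads. Python 3.11.15 was used for other steps. Exon lengths are unions over GENCODE M21 basic transcripts.

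In the labels a library's replicate number is its experiment, which pairs the libraries; deviations from the genotype mean correlated at 0.72 across genes. The members and lists were chosen with earlier results of these data known. Named were the members, the 3 most abundant genes of each other pathway list and any called, the 2 most abundant of each marker list, and the 5 genes nearest in pattern; genes named outside that rule were chosen after their values were seen. Marker lists are described by summed levels or counts, and few of their genes are named. The alternatives were pseudocounts of 0.1 and 5, the deposited log2 values, a filter at 10 CPM, no filter, quantile normalization, median-of-ratios scaling, no variance trend, the replicate block, each experiment alone and each library left out.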

Additional observations from a re-analysis of the deposited data

Results flagged for a closer look

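For Tap1 the genotype difference had opposite signs in the 2 experiments, at -0.24 (log2(CPM + 1), TCRb-/- minus WT) in experiment 1 and 0.65 in experiment 2. For Psmb10 it was -0.13 in experiment 1 and 0.030 in experiment 2. Each value compares 1 library with 1 library, so the difference between experiments was not tested.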

How the results depend on the processing

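By genotype, the count of genes called was 0 under each pseudocount, filter, scaling and moderation tried, and 2 (Trbc2 and Ttr, no member) with the replicate block; the block changed no other call in the genotype comparison. With the block B2m had an unadjusted p of 0.0345 and an adjusted p of 0.848 in limma, and the members' adjusted p ran from 0.793 to 1.00 over the alternatives. Between experiments 629 genes were called without a variance trend; B2m and Psmb10 then missed the threshold (adjusted p 0.0727 and 0.0766). The share of calls that were higher in experiment 2 was 37.8%, and 50.6% under quantile normalization. The members' median genotype difference of 0.21 was 0.29 with a pseudocount of 0.1, 0.11 with 5, 0.30 on the deposited log2 values, 0.055 with a filter at 10 CPM (which left B2m, Tapbp and Psmb10), 0.19 under quantile normalization, 0.12 in experiment 1 and 0.14 in experiment 2. Tap1 turned to -0.24 in experiment 1 only and Psmb10 to 0.030 in experiment 2 only. Why these values moved was not tested, beyond the fewer genes under the stricter filter.

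With 1 library left out, a genotype keeps a lone pool, whose spread is then taken from the other genotype. Calls then ran from 0 to 47 by genotype (47 without TCRb-/- replicate 1, 1 without TCRb-/- replicate 2) and from 1406 to 3390 between experiments (1406, 1823 and 1637 without TCRb-/- replicate 1, TCRb-/- replicate 2 and WT replicate 1). The members' median ran from 0.013 (without WT replicate 1) to 0.42 (without WT replicate 2), with 0.05 without TCRb-/- replicate 2 and 0.37 without TCRb-/- replicate 1. By genotype B2m ran from -0.084 to 0.51, Tap1 from -0.075 to 0.49, Tapbp from -0.063 to 0.17 and Psmb10 from -0.25 to 0.16; Tap2 (0.12 to 0.65), Psmb8 (0.01 to 0.44) and Psmb9 (0.37 to 0.61) kept their sign. Between experiments Tap1 ran from -0.45 to 0.21, Tap2 from -0.018 to 0.61 and Psmb9 from -0.22 to 0.41. Depth limits Psmb9 most, whose 21 to 44 reads leave wide intervals.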

Other observations

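Class II genes and T cell kinases, which belong to no comparison above, were read for the same libraries. Of the 12 class II genes listed, 2 had a row. Cd74, the invariant chain of class II molecules, stood at 6.02 and 10.06 CPM in TCRb-/- septum (experiments 1 and 2) against 5.19 and 5.68 CPM in WT septum (log2 difference 0.45, adjusted p 1.00 in limma). Both TCRb-/- libraries thus lay above both WT libraries, as in 9.76% of all genes tested (8.04% had both below). Ctss, the protease that degrades that chain and is abundant in microglia, had 26.2 and 27.9 CPM in TCRb-/- and 22.4 and 31.7 CPM in WT. Of the kinases that act below the T cell receptor, Zap70 had 4.35 and 5.75 CPM in TCRb-/- against 2.82 and 4.03 in WT, and Lck 5.78 and 6.85 against 7.21 and 7.56 CPM. Zap70 and Lck thus kept a signal in libraries in which Trbc2 had 0 reads, and which cells gave that signal was not tested. Of the 4 T cell markers tested, 3 were lower and 1 was higher in TCRb-/- in both experiments. Of all genes tested, 24.5% were lower and 27.0% higher in both.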
